A study of Homo sapiens with 10 samples.

Results

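The Hedgehog pathway genes described here are PTCH1, SMO, HHIP, GLI1, GLI2, GLI3 and SUFU, 7 genes found by symbol among the 23228 genes of the deposited read-count table. All 7 were measured in every library and passed the filter on low counts. All libraries are labelled as RD, an established human rhabdomyosarcoma line, so by their labels the groups share a single genetic background. Cells were transfected with NRAS siRNA 1, NRAS siRNA 2 or a nonspecific siRNA at 10 nM and harvested at 48 h, or were treated with 300 nM of the ERK inhibitor SCH772984 or with its vehicle DMSO for 24 h. Each of the 5 groups had 2 libraries. Nothing in the labels tells whether a pair of replicates was grown and treated separately, and p-values here refer to library-to-library spread, which could be technical alone.

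In Hedgehog signalling a secreted ligand binds the receptor PTCH1 and lifts its hold on SMO, a membrane protein that works in the primary cilium. Active SMO releases the GLI transcription factors from SUFU, and less of GLI3 is then trimmed into a repressor. PTCH1, HHIP and GLI1 are themselves classical targets of the GLI factors, so their RNA is widely used as a readout of the pathway, which has been linked to rhabdomyosarcoma since mice with a mutant Ptch1 allele were found to develop it.

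Libraries held 23224063 to 30768970 counts assigned to genes. NRAS, the siRNA target, had 52.4 and 52.1 CPM (each gene's count over every 1000000 counted reads, scaled by TMM) with NRAS siRNA 1, 51.0 and 48.0 CPM with NRAS siRNA 2, and 220 and 272 CPM with the nonspecific siRNA. It had 235 and 279 CPM with the ERK inhibitor and 269 and 282 CPM with DMSO. DUSP6, a phosphatase gene whose RNA follows ERK activity, had 4.09% of its DMSO level with the inhibitor, and 41.2% and 43.8% of its nonspecific siRNA level with NRAS siRNA 1 and NRAS siRNA 2. Markers of the muscle lineage were mixed. NCAM1 had 81.7 to 123 CPM over the 10 libraries, MEF2C 28.4 to 47.2, DES 19.7 to 34.0, PAX3 10.7 to 14.1 and MYH3 2.89 to 4.40. Of 12 fixed markers 6 averaged under 1 CPM in every group, among them MYOD1 with 0 to 5 counts per library, MYOG with 0 to 3 counts and MYF5 with 0 counts in all 10 libraries. These values do not show the myogenic factors that usually define rhabdomyosarcoma, and the cells are called RD by their label.

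Of the readout genes, PTCH1 rose under both treatments in every fit tried, GLI1 rose under both but lost its NRAS siRNA call in 7 of 16 alternative fits, and HHIP passed with the ERK inhibitor and had a log2 fold change of 0.28 with NRAS siRNA (edgeR adjusted p = 0.101). With the ERK inhibitor PTCH1, GLI1, HHIP and GLI2 rose and GLI3 fell, so 5 of the 7 genes passed the test, 4 higher and 1 lower, while 13.2% of all 14761 tested genes passed as higher and 14.8% as lower. With NRAS siRNA, taken as the mean of both siRNAs, PTCH1 and GLI1 rose and none of the 7 fell, beside 2.97% of tested genes that passed as higher and 4.99% as lower. The median log2 fold change of the 7 genes was 0.56 with the inhibitor and 0.14 with NRAS siRNA, against medians of 0.00 and -0.01 over all tested genes. Calls were made by the quasi-likelihood test of edgeR, adjusted by Benjamini-Hochberg over all tested genes, at a threshold of 0.05. In bulk RNA, more transcript per cell and more cells that express a gene cannot be told apart.

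**Figure D1:**
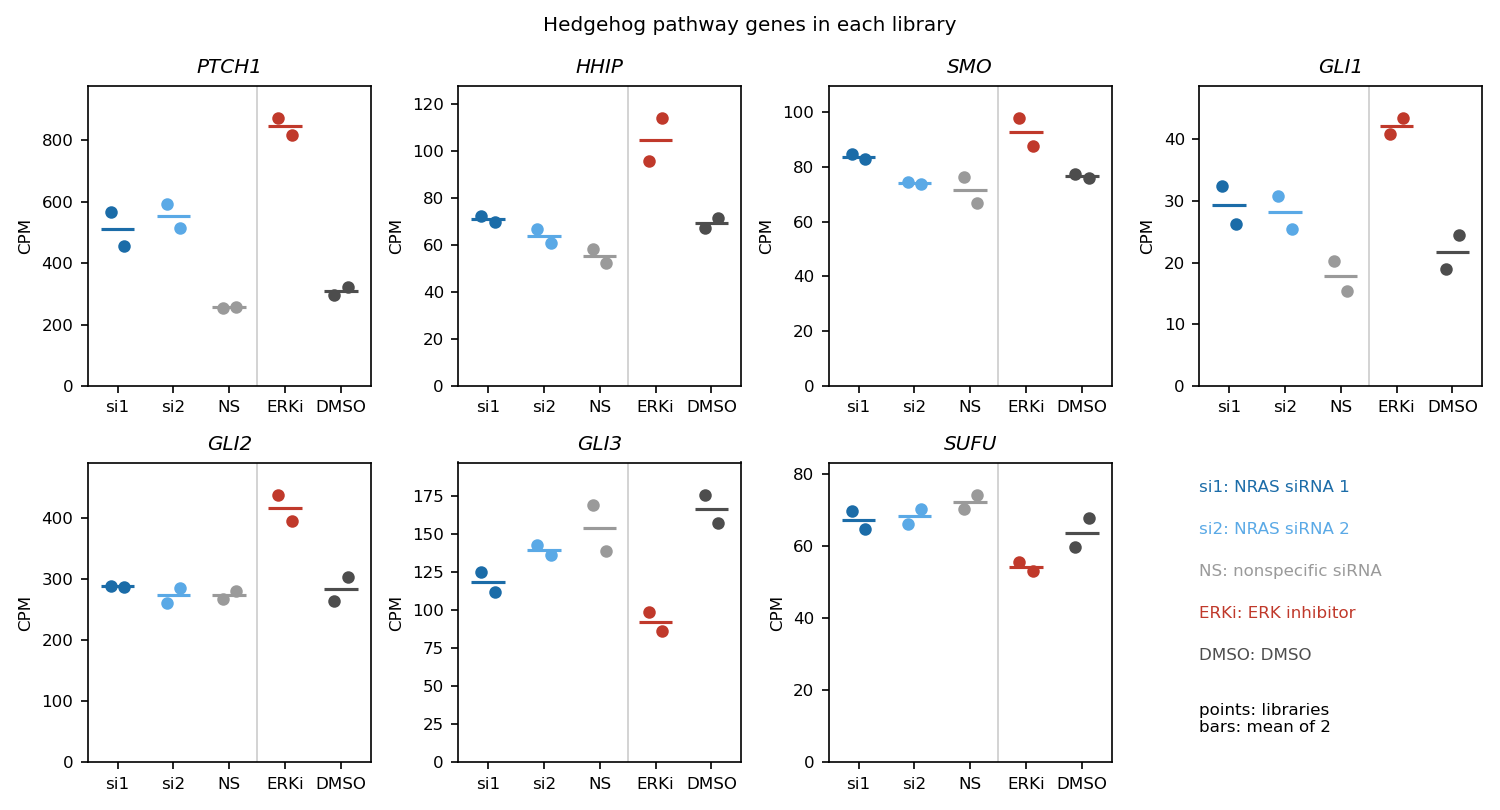
Level of each of the 7 genes in CPM (y axis, linear from 0) in the 10 libraries, by group (x axis), with a point for each library and a bar at the mean of 2. The ERK inhibitor libraries lie above both DMSO libraries for PTCH1, HHIP, SMO, GLI1 and GLI2, and below both for GLI3 and SUFU, and the NRAS siRNA libraries lie above both nonspecific siRNA libraries for PTCH1, HHIP and GLI1. SMO and SUFU did not pass the test with the inhibitor, nor did HHIP with NRAS siRNA. Groups of 2 libraries can stand apart without differing, and the share of all tested genes that do so was not counted.

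PTCH1 encodes the ligand receptor that inhibits SMO, and its promoter carries a GLI consensus sequence. The 9-base GLI consensus, GACCACCCA or TGGGTGGTC on the other strand, was searched on both strands of RefSeq promoters of the GRCh38.p14 build, each running from 250 bases before a transcript start to 50 after it. Entries were found for 5 of the 7 genes, PTCH1, SMO, HHIP, GLI2 and SUFU, with 10 entries in all, 5 of them for PTCH1. The windows below show a match with the fewest mismatches from 1 entry for each of these genes, 5′ to 3′ on the strand of the gene, with the 9 matched bases in capitals. In the entries shown, the PTCH1 and GLI2 windows had no equal, whereas SUFU had 3 equally good matches, HHIP 7 and SMO 11, of which 1 each is shown.
PTCH1, exact match, chr9:95509420-95509448, minus strand: gttgcctaccTGGGTGGTCtctctacttt
GLI2, 2 mismatches, chr2:120735694-120735722, plus strand: tccttggtgcTGGGTGGGGagagtccctg
SUFU, 2 mismatches, chr10:102503744-102503772, plus strand: agcacctcagAGGGTGCTCagcatctcta
HHIP, 3 mismatches, chr4:144645906-144645933, plus strand: gcaccctcgAGGCTGGTTccgaaggctc
SMO, 3 mismatches, chr7:129188383-129188409, plus strand: agcaaggtGCCCGCCGAgtctctcctt
The exact PTCH1 match began 172 bases before its transcript start. A second PTCH1 window, shared by 2 overlapping entries, matched with 1 mismatch and lay at chr9:95507393-95507421 on the minus strand: cagggaaggcGAGCACCCAgacgggggcc.
Among all 35116 promoters 0.236% held the exact consensus, 6.74% held it with up to 1 mismatch and 57.8% with up to 2, so the windows of GLI2, SUFU, HHIP and SMO are at a level of likeness that most promoters reach. A match of letters is a description and not a bound site. The shares over promoters count single entries, and PTCH1 had 5 entries in which a match could be found. Of 35 tested genes with the exact consensus in a promoter, 7 (20.0%) passed as higher and 6 (17.1%) as lower with the ERK inhibitor, against 13.2% and 15.8% of 9985 tested genes with any promoter entry. PTCH1 is itself among the 35 genes and among the 7 that passed as higher.

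PTCH1 had 873 and 819 CPM with the ERK inhibitor, against 295 and 323 CPM with DMSO. The groups did not overlap and the log2 fold change was 1.45 (SE 0.12, edgeR adjusted p = 2.77e-05), a 2.74-fold difference. In the transfected cells it had 567 and 457 CPM with NRAS siRNA 1, 593 and 513 CPM with NRAS siRNA 2, and 254 and 258 CPM with the nonspecific siRNA. All 4 NRAS siRNA libraries stood above both controls. The log2 fold change was 1.00 with NRAS siRNA 1 (SE 0.12, edgeR adjusted p = 0.00405) and 1.11 with NRAS siRNA 2 (SE 0.12, edgeR adjusted p = 0.00158), and 1.06 for their mean (SE 0.10, edgeR adjusted p = 0.00118). Sorted by log2 fold change, PTCH1 stood at place 262 from the top of 14761 tested genes for the mean of both siRNAs and at place 517 for the ERK inhibitor. All of these calls held in the 16 alternative fits. PTCH1 shares 711 exon bases with an antisense neighbour, AL161729.1, which the count table does not list. Whether the counting used strand is not given, so reads of that neighbour could be among those counted for PTCH1.

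HHIP encodes a membrane protein that binds Hedgehog ligands and keeps them from the receptor. It had 95.8 and 114 CPM with the ERK inhibitor, against 67.1 and 71.4 CPM with DMSO, without overlap. The log2 fold change was 0.60 (SE 0.11, edgeR adjusted p = 0.00348), a 1.52-fold difference. With NRAS siRNA 1 the gene had 72.5 and 70.0 CPM, with NRAS siRNA 2 it had 67.1 and 60.9 CPM, and with the nonspecific siRNA 58.5 and 52.5 CPM. All 4 NRAS siRNA libraries were above both controls, yet the mean log2 fold change of 0.28 (95% interval 0.07 to 0.50) did not pass (edgeR adjusted p = 0.101). HHIP shares 178 exon bases with its antisense neighbour HHIP-AS1, and whether the counting used strand is not given in the sources used here. The antisense gene, listed under its older name LOC646576, had 5.66 to 8.19 CPM over the 10 libraries and a log2 fold change of 0.17 with the ERK inhibitor (edgeR adjusted p = 0.484).

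SMO encodes the signal transducer that PTCH1 holds in check. SMO had 97.9 and 87.5 CPM with the ERK inhibitor, against 77.5 and 76.1 CPM with DMSO. Both inhibitor libraries were higher, but the log2 fold change of 0.27 (95% interval 0.05 to 0.49) missed the threshold (edgeR adjusted p = 0.0630). SMO had 84.8 and 82.8 CPM with NRAS siRNA 1, 74.5 and 73.7 CPM with NRAS siRNA 2, and 76.3 and 66.9 CPM with the nonspecific siRNA, so the siRNA 2 libraries lay inside the control range. The mean log2 fold change was 0.14 (95% interval -0.05 to 0.33, edgeR adjusted p = 0.327). Within a library PTCH1 gave 8.92 and 9.35 counts per SMO count with the ERK inhibitor, against 3.80 and 4.25 with DMSO. The same ratio was 6.68 and 5.51 with NRAS siRNA 1, 7.96 and 6.96 with NRAS siRNA 2, and 3.33 and 3.86 with the nonspecific siRNA. The lowest ratio in any treated library was thus above the highest in any control library. SMO itself passed in neither comparison, so the ratio largely restates the PTCH1 values. How many other gene pairs set the libraries apart in this way was not counted.

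GLI1 encodes the GLI factor that acts as an activator and whose own transcription depends on the pathway. GLI1 had 40.8 and 43.4 CPM with the ERK inhibitor, against 18.9 and 24.4 CPM with DMSO. The log2 fold change was 0.96 (SE 0.18, edgeR adjusted p = 0.00363), a 1.94-fold difference, and the groups stood apart. After transfection it had 32.4 and 26.2 CPM with NRAS siRNA 1, 30.8 and 25.5 CPM with NRAS siRNA 2, and 20.3 and 15.4 CPM with the nonspecific siRNA. Every NRAS siRNA library was higher than both controls. For the mean of both siRNAs the log2 fold change was 0.69 (SE 0.16, edgeR adjusted p = 0.0318), while neither siRNA passed alone, with 0.72 for NRAS siRNA 1 (edgeR adjusted p = 0.0745) and 0.66 for NRAS siRNA 2 (edgeR adjusted p = 0.0568). Both siRNAs alone passed for GLI1 with DESeq2 (adjusted p = 0.00707 and 0.0106), without the filter on low counts (edgeR adjusted p = 0.00783 and 0.00966) and in the fit with a replicate block (edgeR adjusted p = 0.0334 and 0.0276), each given for NRAS siRNA 1 and then NRAS siRNA 2. Without nonspecific siRNA replicate 1 the mean was 0.92 (edgeR adjusted p = 0.0658) and without replicate 2 it was 0.50 (edgeR adjusted p = 0.149), and the call was also lost without NRAS siRNA 1 replicate 1 (0.61, edgeR adjusted p = 0.0903) and without NRAS siRNA 2 replicate 1 (0.62, edgeR adjusted p = 0.0968). It was lost too without ERK inhibitor replicate 1 or replicate 2, which are not in this contrast. Those libraries enter through the filter, the scaling, the shared estimate of spread and the adjustment over tested genes, which were not separated. The fit of the compared groups alone also lost the call (edgeR adjusted p = 0.0656).

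GLI2 encodes the main activator among the GLI factors when signalling begins. It had 438 and 396 CPM with the ERK inhibitor, against 263 and 304 CPM with DMSO. The inhibitor libraries were both higher, with a log2 fold change of 0.56 (SE 0.10, edgeR adjusted p = 0.00247), a 1.47-fold difference. GLI2 had 290 and 287 CPM with NRAS siRNA 1, 261 and 286 CPM with NRAS siRNA 2, and 267 and 281 CPM with the nonspecific siRNA. These ranges lay close together, and the mean log2 fold change was 0.04 with a 95% interval of -0.15 to 0.22 (edgeR adjusted p = 0.815).

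GLI3 encodes the GLI factor that serves mostly as a repressor when ligand is absent. GLI3 had 98.5 and 86.1 CPM with the ERK inhibitor, against 176 and 157 CPM with DMSO. It was the 1 gene of the 7 that passed as lower, at 55.5% of its DMSO level, with a log2 fold change of -0.85 (SE 0.12, edgeR adjusted p = 0.000847). With NRAS siRNA 1 it had 125 and 112 CPM, with NRAS siRNA 2 143 and 136 CPM, and with the nonspecific siRNA 169 and 139 CPM. The siRNA 1 libraries were below both controls and the siRNA 2 libraries overlapped them, and the mean log2 fold change was -0.26 (95% interval -0.49 to -0.03, edgeR adjusted p = 0.140). GLI3 gave 22.5 and 21.8 counts per 100 GLI2 counts in the same library with the ERK inhibitor, against 66.8 and 51.7 with DMSO. In transfected cells that ratio was 43.2 and 39.0 with NRAS siRNA 1, 54.7 and 47.6 with NRAS siRNA 2, and 63.5 and 49.4 with the nonspecific siRNA. The ratio thus set the inhibitor libraries well below all others. RNA counts do not tell the full-length GLI3 protein from its repressor form.

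SUFU encodes the cytoplasmic protein that binds and restrains the GLI factors. Its levels were 55.5 and 52.9 CPM with the ERK inhibitor, against 59.6 and 67.6 CPM with DMSO. Both inhibitor libraries were lower, and the log2 fold change of -0.23 (95% interval -0.45 to -0.01) did not pass (edgeR adjusted p = 0.107). SUFU had 69.5 and 64.7 CPM with NRAS siRNA 1, 66.0 and 70.3 CPM with NRAS siRNA 2, and 70.3 and 74.2 CPM with the nonspecific siRNA, and its mean log2 fold change was -0.09 (edgeR adjusted p = 0.510).

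**Figure D2:**
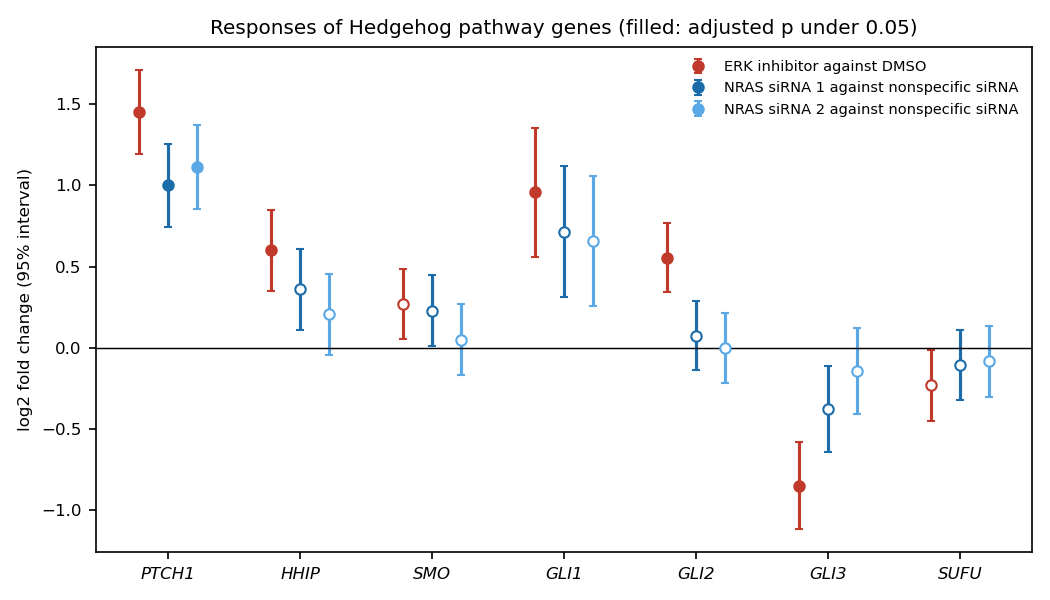
Log2 fold change (y axis) of each of the 7 genes (x axis) for the ERK inhibitor against DMSO and for each NRAS siRNA against the nonspecific siRNA, with 95% intervals from the edgeR fit and filled points where the adjusted p was under 0.05. PTCH1 is filled in all 3 comparisons, from 1.00 to 1.45, and GLI3 with the ERK inhibitor, at -0.85, is the 1 filled point below 0.

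**Figure D3:**
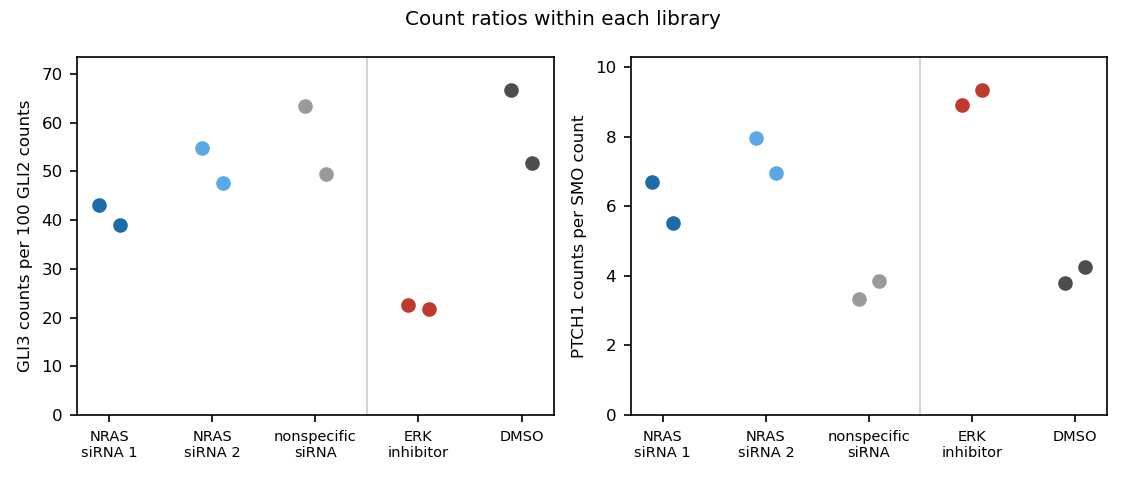
GLI3 counts per 100 GLI2 counts (left y axis) and PTCH1 counts per SMO count (right y axis) in each of the 10 libraries by group (x axis), both axes linear from 0. The ERK inhibitor libraries have 22.5 and 21.8 GLI3 counts per 100 GLI2 counts, and all treated libraries lie above all control libraries in PTCH1 counts per SMO count. How many other gene pairs set libraries apart in this way was not counted.

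Levels of different genes were set side by side as CPM per kilobase of exon, with exon lengths of GENCODE release 29. With the ERK inhibitor GLI2 came first at 56.8 CPM per kilobase and PTCH1 second at 51.0, followed by SMO at 21.5, GLI1 at 10.0, HHIP at 8.70, GLI3 at 8.43 and SUFU at 7.89. With DMSO GLI2 had 38.6 CPM per kilobase, PTCH1 18.6, SMO 17.8, GLI3 15.2, SUFU 9.26, HHIP 5.74 and GLI1 5.15. GLI1 was thus last with DMSO and above HHIP, GLI3 and SUFU with the inhibitor, whereas GLI3 moved the other way. In DMSO the ranges of PTCH1 and SMO overlapped, as did those of HHIP and GLI1. Among inhibitor libraries the range of HHIP overlapped those of GLI3 and SUFU. Dividing by the longest protein-coding transcript instead kept the DMSO order, but PTCH1 (35.8 to 39.3 CPM per kilobase) then stood clear of SMO (20.4 to 20.7) and overlapped GLI2 (38.7 to 44.7). In inhibitor libraries that scale put PTCH1 first, at 103 CPM per kilobase, and GLI2 next at 61.3, and HHIP last at 10.4, below GLI3 at 11.2 and SUFU at 10.8.

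NRAS siRNA 1 and NRAS siRNA 2 were also compared directly. None of the 7 genes differed between them by edgeR, none had an unadjusted p under 0.05 and DESeq2 called 0, while 0.427% of all tested genes passed in that comparison. The difference in PTCH1 between the siRNAs was -0.11 on the log2 scale (95% interval -0.37 to 0.14). Taken singly, each siRNA gave 1 call among the 7 genes, PTCH1, beside 2.07% of tested genes called with NRAS siRNA 1 and 6.43% with NRAS siRNA 2. The nonspecific siRNA against DMSO sets both control groups side by side, which differ in transfection and in time. It gave 0 calls among the 7 genes by edgeR and by DESeq2, beside 0.379% of tested genes, and 2 genes had an unadjusted p under 0.05. These were HHIP with -0.32 (edgeR adjusted p = 0.287) and PTCH1 with -0.27 (edgeR adjusted p = 0.391), both lower with the nonspecific siRNA.

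The responses to NRAS siRNA and to the ERK inhibitor were compared by subtracting the inhibitor response from the mean siRNA response, an interaction in which 7.3% of tested genes passed. GLI2 was the 1 gene of the 7 that passed, with -0.52 on the log2 scale (SE 0.13, edgeR adjusted p = 0.0374), since it rose with the inhibitor and had 0.04 with NRAS siRNA. That call was lost in 7 of the 10 fits that left out 1 library, without nonspecific siRNA replicate 1 or 2, NRAS siRNA 1 replicate 1 or 2, NRAS siRNA 2 replicate 1, ERK inhibitor replicate 1 or DMSO replicate 1, with edgeR adjusted p between 0.0648 and 0.165. For PTCH1 the interaction was -0.40 (95% interval -0.73 to -0.06, edgeR adjusted p = 0.145), for GLI1 -0.27 (95% interval -0.80 to 0.26, edgeR adjusted p = 0.530) and for GLI3 0.59 (95% interval 0.24 to 0.94, edgeR adjusted p = 0.0524). GLI3 passed with DESeq2, without the filter on low counts, in the fit with a replicate block and without nonspecific siRNA replicate 1. Of the 16 alternative fits, 12 left GLI3 on its side of the threshold and 9 left GLI2 on its own. Agent, time and control differ together between the experiments and cannot be told apart.

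Genes beside the 7 were taken from fixed lists of the pathway, 71 genes of which 63 were tested. With the ERK inhibitor 12 passed as higher and 8 as lower, and with NRAS siRNA 2 passed as higher and 5 as lower, with list medians of 0.04 and 0.08 on the log2 scale. These counts stand beside 13.2% of all tested genes that passed as higher and 14.8% as lower with the inhibitor, and 2.97% and 4.99% with NRAS siRNA, and a list's count near those shares is not a result about the list. Of the 20 calls with the inhibitor 9 held in all 16 alternative fits, and of the 7 with NRAS siRNA none did. The genes named next for the inhibitor are among those 9 unless said otherwise.

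Hedgehog ligands were near or under detection. SHH had 0 counts in all 10 libraries, where 3 counts, the limit that a count of 0 allows, stand for 0.0951 to 0.132 CPM. IHH had 0 to 3 counts and DHH 1 to 7 counts per library. Of 9 genes for ligands and their release 6 were tested, of which 5 rose with the ERK inhibitor, against 13.2% of all tested genes, and 0 passed in either direction with NRAS siRNA, against 2.97% higher and 4.99% lower. SHH, IHH and DHH were not among the 6. Of the 5 calls only those of SCUBE1 and SCUBE2 held in all alternative fits. SCUBE2, a secreted protein that helps to release ligand from cells, had 4.07 and 3.75 CPM with the inhibitor, against 1.19 and 1.18 CPM with DMSO (log2 fold change 1.72, SE 0.23, edgeR adjusted p = 0.000623). Its relative SCUBE1 had 1.94 and 1.43 CPM with the inhibitor, against 0.484 and 0.190 CPM with DMSO, and its log2 fold change of 2.34 (SE 0.39, edgeR adjusted p = 0.00209) rests on 51 and 42 counts with the inhibitor and 11 and 5 with DMSO and was 3.12 without DMSO replicate 1.

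Of 6 further genes for reception of the ligand 2 rose with the ERK inhibitor, none fell and none passed with NRAS siRNA, too few genes to set apart from the shares over all tested genes, 13.2% higher and 14.8% lower with the inhibitor. Neither call held in all alternatives. CDON, a coreceptor for Hedgehog ligands, had 37.8 and 39.2 CPM with the inhibitor, against 29.5 and 28.8 CPM with DMSO, a log2 fold change of 0.40 (SE 0.10, edgeR adjusted p = 0.0165). Its call was lost without either DMSO library or either inhibitor library, with values of 0.38 to 0.43 and edgeR adjusted p between 0.0512 and 0.0769. MGRN1, a ubiquitin ligase, had 64.4 and 50.2 CPM with the inhibitor, against 39.9 and 41.9 CPM with DMSO, a log2 fold change of 0.49 (SE 0.13, edgeR adjusted p = 0.0206). That call was lost without ERK inhibitor replicate 1 (0.30, edgeR adjusted p = 0.188), without DMSO replicate 1 (0.45, edgeR adjusted p = 0.0869) and without DMSO replicate 2 (0.55, edgeR adjusted p = 0.0709).

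Genes of the cilium and of signal relay, 19 in number, gave 1 rise and 2 falls with the ERK inhibitor, a lower share than the 13.2% higher and 14.8% lower of all tested genes, and 1 rise and 1 fall with NRAS siRNA, beside 2.97% and 4.99%. ARRB2, an arrestin that accompanies SMO, fell by 0.57 on the log2 scale (SE 0.10, edgeR adjusted p = 0.00220), and KIF3B, a motor of transport in the cilium, fell by 0.41 (SE 0.08, edgeR adjusted p = 0.00413). Among 16 kinases and ubiquitin ligases that act on GLI proteins 1 rose and 4 fell with the inhibitor, beside 13.2% higher and 14.8% lower over all tested genes, and none passed with NRAS siRNA. The riser was KCTD11, an adaptor of a ubiquitin ligase that restrains the pathway, with 24.4 and 25.4 CPM with the inhibitor, against 13.6 and 15.0 CPM with DMSO (log2 fold change 0.80, SE 0.12, edgeR adjusted p = 0.000980).

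Classical GLI targets beside the 7 genes did not move as a block. Of 16 tested, 3 rose and 2 fell with the ERK inhibitor, near the 13.2% higher and 14.8% lower of all tested genes, and 1 rose and 4 fell with NRAS siRNA, beside 2.97% higher and 4.99% lower. BMP4, a secreted growth factor, had 43.1 and 46.3 CPM with the inhibitor, against 10.1 and 9.26 CPM with DMSO (log2 fold change 2.21, SE 0.19, edgeR adjusted p = 3.77e-05). In transfected cells BMP4 had 16.9 and 13.6 CPM with NRAS siRNA 1, 16.2 and 13.1 CPM with NRAS siRNA 2, and 9.43 and 6.66 CPM with the nonspecific siRNA (mean log2 fold change 0.90, SE 0.17, edgeR adjusted p = 0.0151). Without nonspecific siRNA replicate 2 the siRNA value was 0.66 (edgeR adjusted p = 0.0836). CCND1, the gene of cyclin D1, which drives entry into the cell cycle and is also an established ERK target, had 231 and 208 CPM with the inhibitor, against 687 and 756 CPM with DMSO (log2 fold change -1.72, SE 0.24, edgeR adjusted p = 0.000831). CCND1 thus went the opposite way to PTCH1 and BMP4. FOXF2 also rose, with 2.47 and 3.48 CPM with the inhibitor, against 1.19 and 1.29 CPM with DMSO (log2 fold change 1.26, SE 0.25, edgeR adjusted p = 0.00498). HSD11B2 rose by 1.26 (edgeR adjusted p = 0.0224), a call that held in 14 of 16 alternatives. FOXM1, named after its value was seen, also fell, with 119 and 128 CPM with the inhibitor, against 197 and 233 CPM with DMSO. CCND1 had 393 and 626 CPM with NRAS siRNA 1, 389 and 642 CPM with NRAS siRNA 2, and 818 and 906 CPM with the nonspecific siRNA. With NRAS siRNA CCND1 had a mean log2 fold change of -0.75 (edgeR adjusted p = 0.0482), the Notch ligand gene JAG2 -0.67 (edgeR adjusted p = 0.0310) and SNAI1, a transcriptional repressor, -0.53 (edgeR adjusted p = 0.0200). Of the 16 alternative fits, the call held in 6 for CCND1, 11 for JAG2 and 12 for SNAI1. Each of these calls was lost without nonspecific siRNA replicate 1, at -0.80 for CCND1 (edgeR adjusted p = 0.137), -0.58 for JAG2 (edgeR adjusted p = 0.155) and -0.44 for SNAI1 (edgeR adjusted p = 0.134), and without nonspecific siRNA replicate 2 or NRAS siRNA 2 replicate 1. The other faller with NRAS siRNA, SFRP1, a secreted Wnt antagonist named after its value was seen, had -0.28 (edgeR adjusted p = 0.0459).

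**Figure D4:**
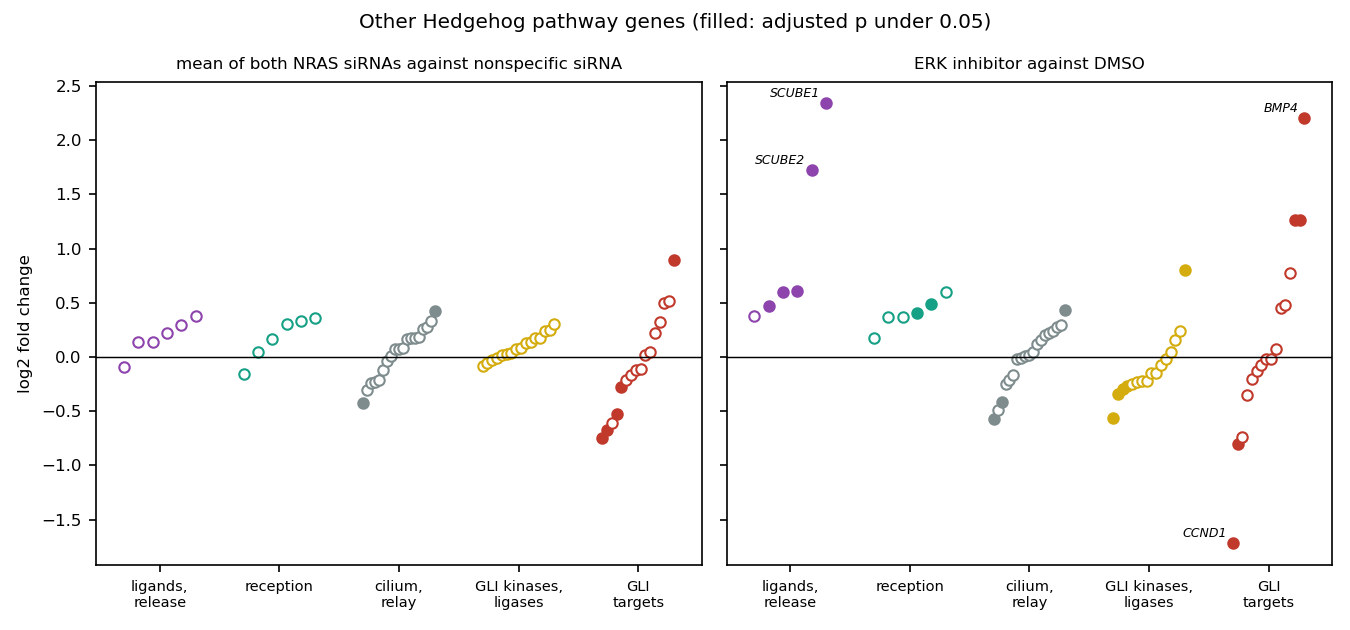
Log2 fold change (y axis) of the tested pathway genes beside the 7, by list (x axis), for the mean of both NRAS siRNAs against the nonspecific siRNA (left) and for the ERK inhibitor against DMSO (right), filled where the edgeR adjusted p was under 0.05. With the inhibitor the points run from CCND1 at -1.72 to SCUBE1 at 2.34.

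The genes most like each of the 5 responding genes were found over the 10 libraries by the root mean square difference of log2 CPM, each gene centred on its own mean, as a description in which all genes share the same libraries. For PTCH1 they were ABHD11-AS1 (0.13), CAP2 (0.14) and TGFB2 (0.15), and GLI1 (0.24) stood at place 51. GLI1 was closest to HOXA11 (0.11), CTF1 (0.11) and B3GNT9 (0.13), and HHIP to MEST (0.06), SQLE (0.08) and DLC1 (0.09). GLI2 lay nearest to FLNC (0.06), POR (0.07) and NT5DC2 (0.08), and GLI3 to NHSL2 (0.09), ACP6 (0.10) and LOC401022 (0.10). GLI2 and HHIP, which have similar inhibitor responses, were at a distance of 0.17 from each other, and PTCH1 and GLI3 at 0.90. Many genes were closer, since GLI2 stood at place 122 for HHIP and HHIP at place 461 for GLI2. SMO was nearer to GLI2, at 0.155 and place 335.

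Markers of the muscle lineage summed to 202 to 227 CPM with the ERK inhibitor, against 159 to 189 CPM with DMSO, and to 154 to 177 CPM over NRAS siRNA libraries, against 159 to 179 CPM with the nonspecific siRNA. NCAM1, which did not pass, made up 103 to 123 CPM of the inhibitor sums and 88.9 to 103 CPM of the DMSO sums. Of the 7 tested, CDH15, a cadherin of muscle precursors, rose with the inhibitor (log2 fold change 3.54, SE 0.44, edgeR adjusted p = 0.000415) and CHRNA1, a subunit of the muscle acetylcholine receptor, passed as lower (edgeR adjusted p = 0.00394) on 1 and 2 counts with the inhibitor, against 17 and 14 counts with DMSO. For the mean of both siRNAs 1 of the 7 passed as lower and 0 as higher, beside 4.99% and 2.97% of all tested genes. CHRNA1 had 7 and 3 counts with NRAS siRNA 1, 4 and 7 with NRAS siRNA 2, and 20 and 14 with the nonspecific siRNA. CHRNA1 passed the filter on low counts only through the control groups, in which it was high, so its tests are not independent of the filter. Markers of other cell types, 16 genes of which 12 averaged under 1 CPM in every group, summed to 230 to 369 CPM with the inhibitor and 239 to 355 CPM with DMSO. Of these sums KRT18, an epithelial keratin, made up 201 to 335 CPM with the inhibitor and 213 to 328 CPM with DMSO, so they say little of the other markers. Of the 6 tested, the endothelial marker VWF passed as higher (20 and 23 counts with the inhibitor, against 7 and 2 with DMSO, edgeR adjusted p = 0.0155), and KDR (0 and 2 counts with the inhibitor, against 10 and 13 with DMSO, edgeR adjusted p = 0.00627) and the macrophage marker CD68 (edgeR adjusted p = 0.0261) as lower. VWF passed the filter only through the inhibitor group and KDR only through the control groups, where each was high, so these tests are not independent of the filter. Over all tested genes 13.2% passed as higher and 14.8% as lower with the inhibitor, and both marker lists hold too few tested genes to set apart from these shares. In the transfected cells the markers of other cell types summed to 121 to 217 CPM with NRAS siRNA and 197 to 221 CPM with the nonspecific siRNA. The part of these shifts in the Hedgehog values was not tested.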

How the data were processed

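RNA of RD cells was measured as stranded mRNA libraries, per the labels' protocols, in 5 groups of 2 libraries. The authors deposited raw read counts for each gene, as whole numbers. HTSeq, TopHat2, SAMtools and bcl2fastq, and the builds GRCh37 and hg19, are named in the submitters' processing notes. Their versions, the annotation and the strand setting were not found there, and reads of antisense neighbours of PTCH1, SMO, HHIP and GLI1 cannot be told apart. The shared exon bases were 711 for PTCH1 with AL161729.1, 129 for SMO with AC011005.4 and 8 for GLI1 with ARHGAP9. Each of the 10 sample files equalled its column of the deposited table. In each, 5 category lines that name no gene, together 38.3 to 39.4% of reads, entered neither library sizes nor tests.

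Tests used edgeR 4.0.16 in R 4.3.3 (glmQLFit and glmQLFTest) with TMM scaling and filterByExpr (minimum count 10, by group). The 10 libraries were fitted together, leaving 5 residual degrees of freedom, without covariates, and with Benjamini-Hochberg adjustment over 14761 genes at 0.05. The mean of both NRAS siRNAs is a contrast of that fit. Intervals are at 95% confidence from the fit's standard error. CPM use TMM-scaled library sizes, and likeness used log2 CPM with a prior count of 2. Replicates had Pearson's r of 0.990 to 0.993 across genes and differed by more than sampling noise, with a chi-square of 13.2 to 25.5 times its degrees of freedom. The common biological coefficient of variation was 0.115. At this depth 3 counts, the floor for counting error only, stand for 0.0951 to 0.132 CPM.

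Alternatives were RLE and upper-quartile scaling, no filter, a replicate block, the compared groups alone, DESeq2 1.42.0 and each library left out, 16 in all. Promoters came from a RefSeq table of GRCh38.p14, a later build than that of the counts, and were matched by symbol for 5 of the 7 genes. GLI1 and GLI3 are named only. Some genes of the lists are not reported here. The 7 genes and all lists were chosen with earlier results of these data known, so nothing here is independent of them. For the lists, the rule took for naming up to 4 called genes per list and comparison, by size of change, with a mean of at least 1 CPM, of which those whose calls held in all alternatives are mostly named. For likeness the nearest 3 genes were taken.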

Additional observations from a re-analysis of the deposited data

Results flagged for a closer look

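For GLI2 and 6 other genes named by rule of the pathway the responses to NRAS siRNA and to the ERK inhibitor differed by the test of the difference itself, given here as the mean siRNA response minus the inhibitor response on the log2 scale with edgeR adjusted p-values. Of 63 tested genes beside the 7 Hedgehog genes 7 passed this test, 3 with a positive and 4 with a negative difference, beside 7.3% of all tested genes. GLI2 had -0.52 (SE 0.13, edgeR adjusted p = 0.0374). The other genes with a higher response to the inhibitor were BMP4 with -1.31 (SE 0.25, edgeR adjusted p = 0.0151), SCUBE1 with -2.12 (SE 0.52, edgeR adjusted p = 0.0381), SCUBE2 with -1.34 (SE 0.31, edgeR adjusted p = 0.0313) and KIF7, a kinesin of the cilium tip, with -0.74 (SE 0.18, edgeR adjusted p = 0.0355). The inhibitor response was lower than the siRNA response for KIF3B with 0.42 (SE 0.10, edgeR adjusted p = 0.0386) and for CUL1, a scaffold of ubiquitin ligases, with 0.59 (SE 0.15, edgeR adjusted p = 0.0445). The remaining gene, FOXM1, a cell cycle transcription factor outside the rule for named genes and chosen after its value was seen, had 0.69 (SE 0.14, edgeR adjusted p = 0.0186). For the genes named by rule, each of the 7 calls was lost without at least 1 library, BMP4 in 2 of the 10 such fits, without nonspecific siRNA replicate 1 (-1.04, edgeR adjusted p = 0.0501) and without DMSO replicate 2 (-1.25, edgeR adjusted p = 0.0662), and the other 6 genes in 7 to 10 of them. Agent, time and control differ together between the experiments and cannot be told apart.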

How the results depend on the processing

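With 2 libraries a group, counts of calls depended on the fit more than the values of the Hedgehog genes did. The calls of PTCH1 in each siRNA comparison and with the ERK inhibitor, and of GLI1, GLI2, GLI3 and HHIP with the inhibitor, held in all 16 alternatives, with PTCH1 between 1.39 and 1.55 for the inhibitor and between 0.97 and 1.13 for the mean of both siRNAs. Over 83 gene values under 16 alternatives each, 1168 kept their direction and side of the threshold, 127 lost a call, 16 gained one and 17 changed sign. SMO passed with the inhibitor under upper-quartile scaling (0.33, edgeR adjusted p = 0.0457), under the replicate block and without either nonspecific siRNA library.

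Replicate numbers were shared between groups, but the labels do not say that they mark a common batch, and same-numbered deviations correlated at 0.0737 to 0.448. The fit with the replicate block called 2846 genes for the mean of both siRNAs, 1280 for NRAS siRNA 1, 2815 for NRAS siRNA 2, 120 between the siRNAs, 446 between the controls and 2379 for the interaction, and 3, 2 and 2 Hedgehog genes for NRAS siRNA 1, NRAS siRNA 2 and the interaction. GLI3 for the mean of both siRNAs (-0.26) passed in it (edgeR adjusted p = 0.0232).

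Without the filter on low counts 1765 genes were called for the mean of both siRNAs, against 1174 with it, 785 against 305 for NRAS siRNA 1, 1690 against 949 for NRAS siRNA 2 and 283 against 56 between the controls, and 2 Hedgehog genes each for NRAS siRNA 1, NRAS siRNA 2 and the interaction. DESeq2 called 757 genes for NRAS siRNA 1, 1626 for NRAS siRNA 2, 139 between the siRNAs and 361 between the controls, and 2 Hedgehog genes each for NRAS siRNA 1, NRAS siRNA 2 and the interaction. The compared groups alone gave 425 genes and 1 Hedgehog gene for the mean of both siRNAs, 45 for NRAS siRNA 1, 225 for NRAS siRNA 2, 28 between the siRNAs and 12 between the controls, with fewer libraries to estimate spread. The cause of the other shifts was not tested.

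Leaving out 1 library, with a lone library assumed to vary like the other groups, gave 1875 (without ERK inhibitor replicate 1) to 4392 genes for the inhibitor, against 4128 in all. It gave 131 (without nonspecific siRNA replicate 1) to 1491 for the mean of both siRNAs, 28 (without NRAS siRNA 1 replicate 1) to 374 for NRAS siRNA 1, 53 (without NRAS siRNA 2 replicate 1) to 1144 for NRAS siRNA 2, 6 to 54 between the siRNAs, 6 to 31 between the controls and 343 (without ERK inhibitor replicate 1) to 915 for the interaction. Hedgehog calls ran from 1 to 2 for the mean of both siRNAs and from 0 to 1 for the interaction.

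Changes of sign concerned values near 0. For NRAS siRNA 2, GLI2 (-0.00) was 0.0060 with RLE size factors, 0.023 with upper-quartile scaling, 0.016 without the filter, 0.018 with the compared groups alone, 0.0039 with DESeq2, and -0.069 to 0.062 with 1 library left out. With 1 library left out, GLI3 ran from -0.28 to 0.022 and SMO from -0.042 to 0.16 for NRAS siRNA 2. Between the siRNAs GLI1 ran from -0.10 to 0.20, PTCH1 from -0.28 to 0.036 and SUFU from -0.074 to 0.030, and between the controls GLI2 ran from -0.15 to 0.060 and GLI3 from -0.26 to 0.025. With 2 libraries a group, a p that misses the threshold does not show that values did not differ.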
